A study of Mus musculus with 24 samples.

Results

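Metabotropic glutamate receptors are G protein-coupled receptors that sense glutamate outside the ion channels of fast transmission. The family falls into 3 groups. Grm5 belongs to group I, which couples to Gq and phospholipase C, sits mostly on the postsynaptic side and is held there by Homer scaffolds. Grm2 and Grm3 form group II, and Grm4, Grm7 and Grm8 belong to group III; both groups couple to Gi and Go, lower cyclic AMP and, on axon terminals, limit transmitter release. In the spinal cord these receptors have been studied in the dorsal horn, where they adjust pain transmission, and Grm3 is also known as a receptor of glial cells. The 6 genes Grm2, Grm3, Grm4, Grm5, Grm7 and Grm8 were taken by name from the 32962 gene rows of a UMI count matrix (a UMI is a molecular tag that marks 1 captured mRNA). Other receptors of the family are not analysed here.

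The counts come from Drop-seq, a droplet method, applied to nuclei of the lumbar cord, freed of dorsal root ganglia. The 24 mice were of the ICR/CD-1 stock and aged 8 to 11 weeks. The label field for the tissue names the brain; the protocol names the spinal cord. The mice were 9 controls, 10 that received 30 µl of 2% formalin in the sole of both hindpaws, a painful stimulus, and 5 that walked on a rotarod speeding up to 40 rpm over 5 min, a motor task. How long after the stimulus tissue was taken is not stated in the sources. The authors' annotation puts 13425 of 18000 nuclei in 7 cell classes, among them 7103 neurons, and places 4280 neurons in 43 populations. The letters of each population code give 8 neuron families, read here as dorsal (DE, DI), mid (ME, MI) and ventral (VE, VI) with E for excitatory and I for inhibitory; VC and VM are used as codes.

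Total UMIs in neurons ranged from 297249 to 2385810 in control, 264921 to 1013628 in formalin and 320915 to 2508457 in rotarod mice. The markers of each class were highest in the class of that name, and neuronal markers were also present in every other class, at 13.6% (endothelial or vascular) to 42.6% (oligodendrocyte precursors) of their level in neurons. DE held the excitatory marker Slc17a6 at 111 CPM (UMIs of the gene divided by all UMIs of the same nuclei, times 1000000) and DI at 9.87, and inhibitory markers stood at 25.6 in DE and 367 CPM in DI. Such levels are not given here for the other families. In control mice Slc17a6 was higher by 3.23 on the log2 scale in DE than in DI. In VE it was higher than in VI by 1.13, a call lost without the 3 controls with cx in the title. Libraries shared 19 barcode sequences, which 20 classed nuclei carried. Formalin samples 1 to 5, paired with samples 6 to 10 in numerical order, had deviations from their group mean that correlated at 0.090 to 0.279. Correlations of other formalin pairs are not given here, so whether the order sets these pairs apart was not tested. As a caution, comparisons of conditions in the cell classes are given with these pairs merged where that changes a call. In the fits of neuron families the pairs were not merged, so calls there with formalin samples were not checked for this. Nothing in the labels says that a number marks a shared animal. Rotarod mouse 3 stood apart in neurons, with neuronal markers at 28120 CPM against 35595 to 38623 in the other rotarod mice.

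The 6 genes lie on chromosomes 5, 6, 7, 9 and 17 of GRCm38 (GENCODE M21). Grm2 is short, spanning 12988 bases at chr9:106643095-106656082 on the minus strand. Grm3 spans 239630 bases at chr5:9485541-9725170 (minus), and Grm4 spans 99017 bases at chr17:27422387-27521403 (minus). Grm5 spans 550740 bases at chr7:87584168-88134907 (plus). Grm7, with 921650 bases at chr6:110645581-111567230 (plus), has a longer span than 99.8% of annotated genes, and Grm8 covers 860060 bases at chr6:27275119-28135178 (minus). Most of each long gene is intron, which nuclear RNA retains. Levels are therefore compared within a gene and not between genes. The antisense gene Gm20387 overlaps Grm7 and had 145 UMIs in all barcodes, against 53293 for Grm7; whether the counting used the strand is not stated in the sources.

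Scaffolds attach at the C-terminal tail of the receptors. The last 3 codons read serine, serine, leucine in Grm2, Grm3 and Grm5, and differ among the other receptors. The PDZ protein Pick1 binds the end of the Grm7 tail, and its transcript appears among the results below. The coding ends of the principal transcripts, the last 45 bases of each, are shown here because of that contact; capitals mark the last 3 codons and the stop codon, read from the GENCODE M21 transcripts.
Grm2: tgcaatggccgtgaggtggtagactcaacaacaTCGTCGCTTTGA
Grm3: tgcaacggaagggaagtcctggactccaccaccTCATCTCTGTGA
Grm4: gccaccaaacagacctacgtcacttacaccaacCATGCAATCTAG
Grm5: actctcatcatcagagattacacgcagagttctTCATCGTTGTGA
Grm7: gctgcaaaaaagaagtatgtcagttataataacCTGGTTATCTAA
Grm8: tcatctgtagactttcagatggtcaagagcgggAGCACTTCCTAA

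The coding parts run from 2619 bases in Grm2 to 3516 bases in Grm5, whose tail is the long one. Near the end of the Grm5 tail, at codons 1124 to 1128 of 1171, a search for codons of the Homer ligand motif (proline, proline, any pair of codons, phenylalanine) found 1 match, in capitals below. The same search also matched Grm2 at codons 186 to 190 and Grm7 at codons 200 to 204, which lie in the extracellular domain, and found none in Grm3, Grm4 or Grm8. A match is only a match of letters.
Grm5 Homer motif: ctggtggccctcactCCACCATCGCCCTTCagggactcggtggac

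Grm3 was the member with its highest level outside neurons. In oligodendrocytes, the myelin-forming glia, it stood at 940 ± 203 CPM (SD, n = 23 mice with at least 10 such nuclei), from a lowest value of 543 through a median of 959 to a highest of 1348. Neurons held 209 ± 41.1 CPM (n = 24; 132, 207 and 269 in the same order). The ranges did not overlap, and oligodendrocytes were above neurons in 23 of 23 mice. Endothelial or vascular nuclei held 497 ± 307 CPM (n = 23), with a wide range from 0 to 1097, and were above neurons in 18 of 23 mice and below oligodendrocytes in 20 of 22. Astrocytes stood at 222 ± 67.7 CPM (n = 23), above neurons in 13 of 23 mice, a difference smaller than the SD between mice. Oligodendrocyte precursors held 300 ± 213 CPM (n = 6) and were above neurons in 4 of 6 mice. Microglia, with 4 mice only, held 474 ± 209 CPM and were above neurons in 4 of 4. Over all microglia together the level was 251 CPM. Meningeal or Schwann nuclei were the lowest, at 117 ± 53.0 CPM (n = 24). Since the classes were made by the authors from the expression of the same nuclei, these orders are descriptions and carry no test.

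RNA from neurons in other droplets can add UMIs to glial nuclei, so levels in several classes are set beside the neuronal markers of the same nuclei. In oligodendrocytes Grm3 was at 430% of its neuronal level while neuronal markers were at 18.9% of theirs. The same pair of values was 242% and 13.6% in endothelial or vascular nuclei and 99.9% and 17.6% in astrocytes. With every nucleus thinned to 500 UMIs, a Grm3 UMI was found in 32.7% of oligodendrocytes, 16.4% of endothelial or vascular nuclei, 8.88% of astrocytes, 8.85% of neurons and 5.15% of meningeal or Schwann nuclei. Without thinning the shares were 48.1%, 34.7%, 22.1%, 29.3% and 15%, at median depths of 1092, 1538, 1214.5, 2214 and 1281 UMIs per nucleus.

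Grm5 and Grm7 were highest in neurons. Grm5 stood at 1884 ± 261 CPM in neurons (n = 24), 1427 ± 404 in oligodendrocyte precursors (n = 6), 1009 ± 300 in astrocytes (n = 23), 518 ± 182 in oligodendrocytes (n = 23), 420 ± 134 in meningeal or Schwann nuclei (n = 24) and 354 ± 158 in endothelial or vascular nuclei (n = 23). Astrocytes exceeded oligodendrocytes in 22 of 23 mice and stayed below neurons in every one of 23. Precursors and neurons were closer, and the precursor class carried neuronal markers at 42.6% of the neuronal level. Grm5 in astrocytes was at 55.0% of its neuronal level, beside markers at 17.6%; in endothelial or vascular nuclei it was at 17.8%, beside 13.6%.

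Grm7 stood at 1828 ± 243 CPM in neurons (n = 24), 1246 ± 513 in oligodendrocyte precursors (n = 6) and 1014 ± 387 in endothelial or vascular nuclei (n = 23). Oligodendrocytes followed with 768 ± 181 CPM (n = 23), then astrocytes with 553 ± 204 (n = 23) and meningeal or Schwann nuclei with 452 ± 161 (n = 24). Where Grm5 ranked astrocytes above vascular nuclei in 22 of 22 mice, Grm7 ranked vascular nuclei above astrocytes in 20 of 22. For each Grm5 UMI there were 0.966 Grm7 UMIs in neurons, 0.50 in astrocytes, 1.48 in oligodendrocytes and 3.12 in endothelial or vascular nuclei. Over all mice together Grm7 was at 57.6% of its neuronal level in endothelial or vascular nuclei, beside neuronal markers at 13.6%. In astrocytes these were 28.5% and 17.6%. The source of these UMIs was not tested.

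Grm8 stood at 286 ± 62.2 CPM in neurons (n = 24) and 235 ± 131 in oligodendrocyte precursors (n = 6), where neurons of the same 6 mice held 232 ± 54.1 CPM, a difference well within the SD. Precursors carried neuronal markers at 42.6% of the neuronal level. Grm8 stood at 149 ± 68.0 CPM in astrocytes (n = 23). In vascular nuclei, meningeal or Schwann nuclei and oligodendrocytes it stood at 85.0 ± 52.1 (n = 23) to 110 ± 42.7 CPM (n = 23). Over all mice together Grm8 was at 48.7% of its neuronal level in astrocytes, beside markers at 17.6%. In oligodendrocytes these were 34.1% and 18.9%. Grm4 was a low transcript: 585 UMIs in neurons gave 28.2 ± 11.5 CPM (n = 24), and 6.83% of neurons held 1 or more. In the 4 other classes with over 20 mice Grm4 averaged 5.27 to 6.30 CPM, each with an SD above its mean. Over all mice together Grm4 was at 14.3% to 26.8% of its neuronal level in these classes, beside neuronal markers at 13.6% to 18.9%. Grm2 was near the detection limit, with 29 UMIs in 27 of 7103 neurons, or 1.30 CPM (95% Poisson interval 0.873 to 1.87, counting error only). No Grm2 UMI was seen in astrocytes or oligodendrocytes, where 0 counts allow up to 1.73 and 1.02 CPM. The interval in neurons reaches below both limits, and a difference in Grm2 between these classes was not tested.

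**Figure D1:**
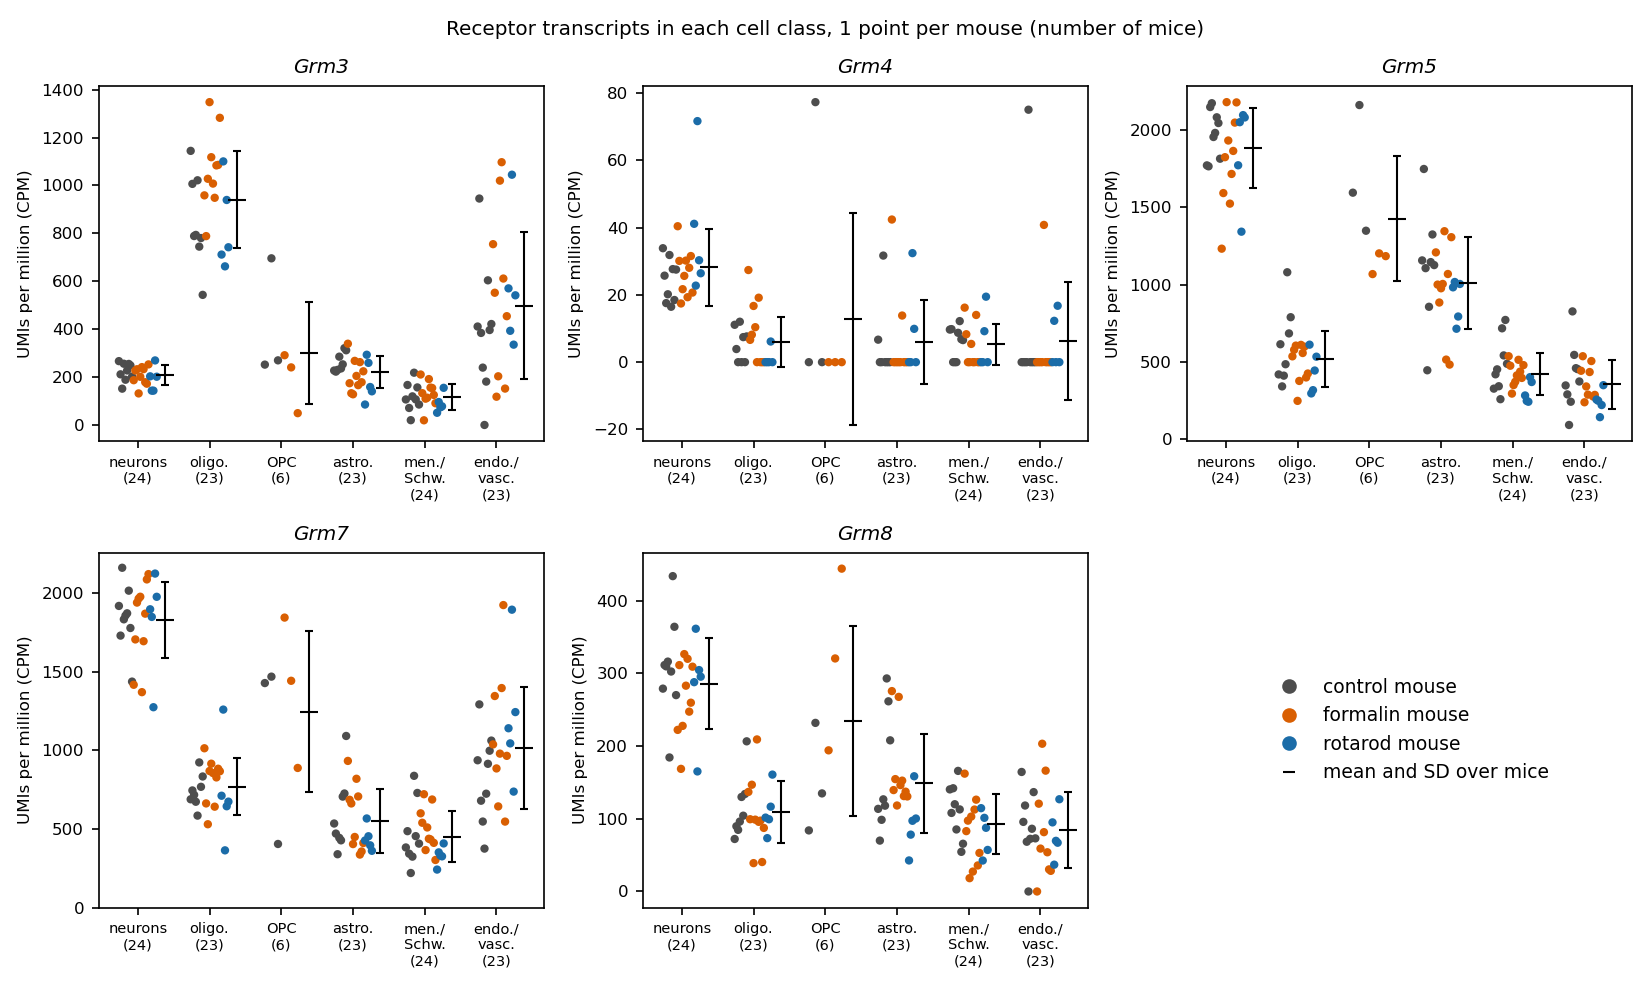
CPM of 5 receptors (vertical axes) in 6 cell classes, 1 point per mouse with at least 10 nuclei of the class, coloured by group, with the mean and SD over mice. Grm3 is highest in oligodendrocytes (940 CPM against 209 in neurons), and Grm4, Grm5 and Grm7 are highest in neurons. Grm8 is alike in neurons and precursors of the same 6 mice (232 and 235 CPM). Precursors carried neuronal markers at 42.6% of the neuronal level. Microglia (4 mice) and Grm2 are not drawn.

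Within neurons the receptors differed between families, in part along the dorsal to ventral axis. Grm3 was highest in the dorsal inhibitory family DI, at 498 ± 240 CPM (n = 24), against 177 ± 68.0 in DE (n = 24) and 90.1 ± 45.4 in VE (n = 18), the lowest. The step from DI to the next family, ME with 216 ± 126 CPM (n = 11), exceeded the larger SD, and no later step between neighbours did. DE was close to VM (185 ± 83.2 CPM, n = 9) and MI (169 ± 112, n = 21), and above them in 5 of 9 and 11 of 21 mice. DE was above VC in 14 of 22 mice, above VI in 20 of 22 and above VE in 18 of 18. Oligodendrocyte markers were at 1419 CPM in DI and 1650 CPM in DE; their part in the Grm3 levels was not tested. Grm5 fell from 3126 ± 658 CPM in DI and 2515 ± 441 in DE (n = 24 each) to 1187 ± 273 in VI (n = 22), in steps that each stayed within the larger SD. That SD is between mice and does not use the pairing of families in a mouse. Within a mouse, Grm5 was higher in DI than in DE in 20 of 24, and in VM than in ME, the next family, in 2 of 7. Grm7 followed a like order at the ends, with 2677 ± 548 CPM in DI, 2503 ± 366 in DE and 1082 ± 238 in VI, and here the last step, from VM (1571 ± 225, n = 9) to VI, exceeded the SD.

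Grm8 averaged lower in the dorsal families than in every other family. It was highest in the mid excitatory family ME, at 596 ± 281 CPM (n = 11), followed by VM with 463 ± 113 (n = 9) and VE with 455 ± 191 (n = 18), and lowest in DE (206 ± 74.0) and DI (198 ± 77.1, n = 24 each). VI, with 258 ± 166 CPM (n = 22), stood next above DE, but was below DE in 8 of 22 mice and below DI in 13 of 22. No pair of neighbours in that order differed beyond the larger SD. Grm4 ranged from 9.79 ± 17.7 CPM in ME to 32.7 ± 29.5 in VI (n = 22), and no neighbours differed beyond their spread. Grm2 had at most 7 UMIs in any family.

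**Figure D2:**
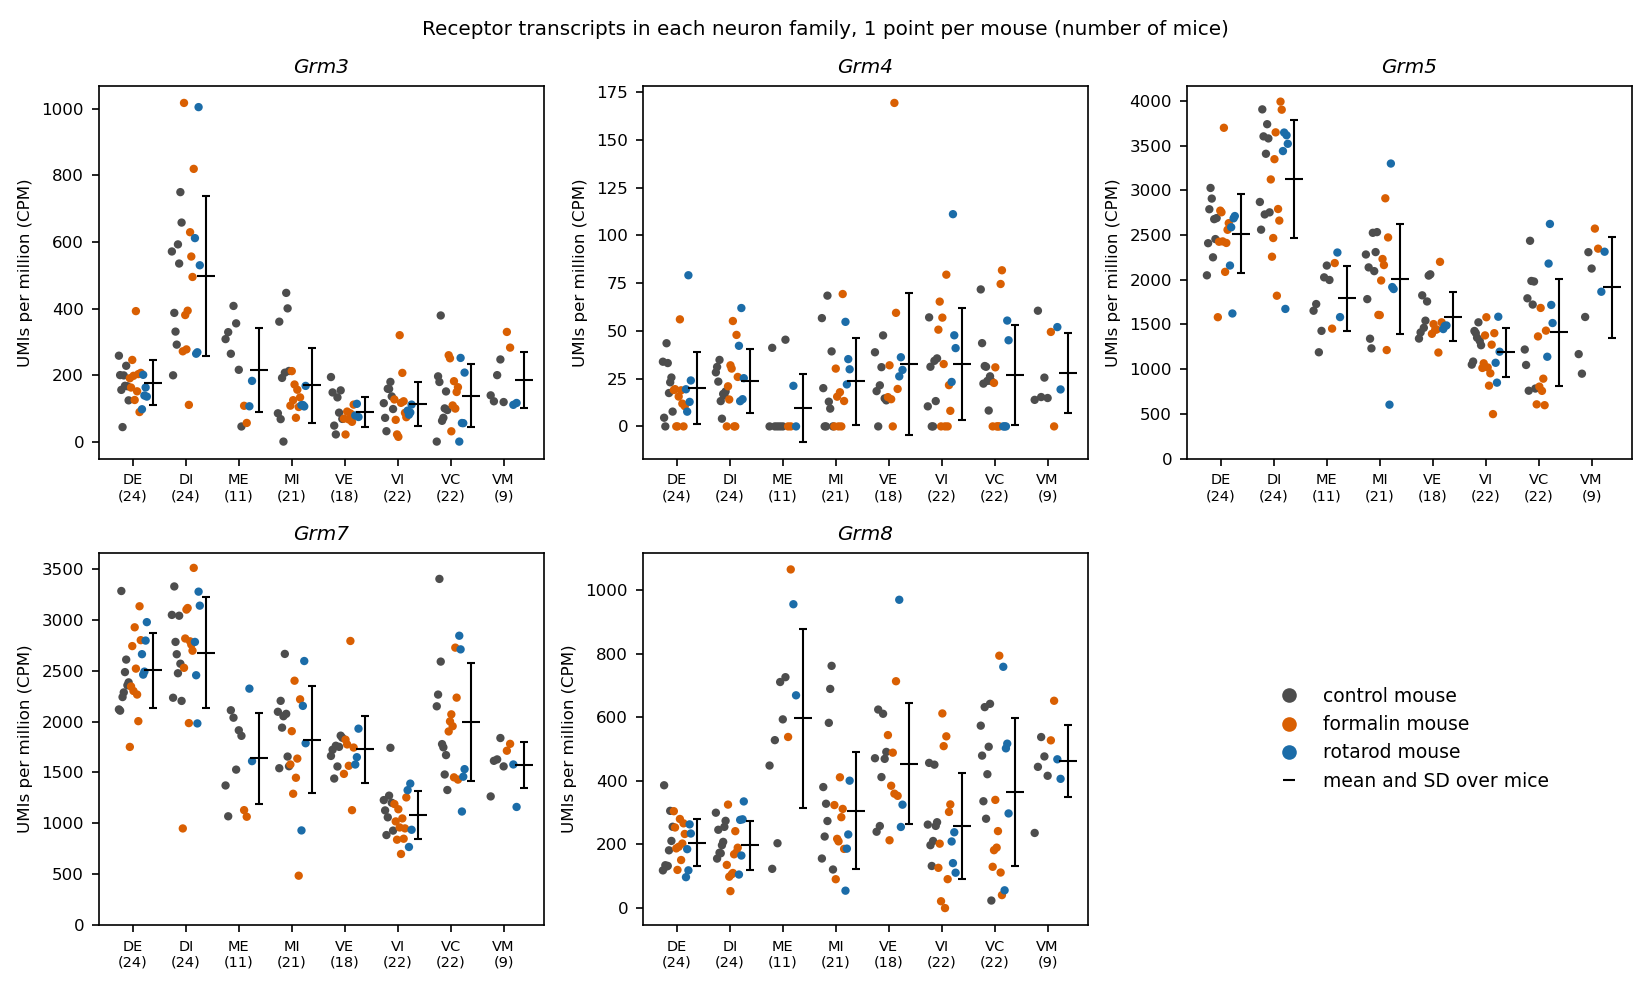
CPM of 5 receptors (vertical axes) in the 8 neuron families, 1 point per mouse with at least 5 nuclei of the family, coloured by group, with the mean and SD over mice. DI is highest for Grm3, Grm5 and Grm7 (498, 3126 and 2677 CPM), and ME is highest for Grm8 (596 CPM).

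The families were compared in control mice with edgeR's quasi-likelihood test on UMI counts summed per mouse and family, with the mouse as a block and Benjamini-Hochberg adjustment at 0.05 over 3072 genes. Only 4 of the 6 receptors passed the filter on low counts, since Grm2 and Grm4 were too sparse. The families were drawn from the expression of these nuclei, so the p-values describe the deposited families and are no independent test of them. Between dorsal families (DE, DI) and ventral families (VE, VI, VC, VM), 3 receptors were called higher in dorsal neurons and 1 was called lower. For comparison, 29.7% of the genes tested were called, 15.6% higher and 14.1% lower.

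Grm5 averaged 2910 ± 333 CPM in the dorsal and 1467 ± 379 CPM in the ventral families of the 9 control mice. The dorsal values ran from 2459 to 3346 and the ventral values from 758 to 1866, and the ranges did not overlap. The log2 fold change was 1.00 (SE 0.084, edgeR adjusted p = 7.3e-19), with the dorsal value higher in 9 of 9 mice. Grm7 averaged 2569 ± 331 against 1721 ± 358 CPM, or 0.73 on the log2 scale (SE 0.077; edgeR, adjusted p = 5.6e-14), higher in 8 of 9. Grm3 averaged 325 ± 100 against 146 ± 91.6 CPM, or 1.29 on the log2 scale (SE 0.18; edgeR, adjusted p = 6.2e-08), also higher in 8 of 9. The exception in both cases was control mouse 4, whose ventral value rests on 8 VC nuclei alone. All 4 calls held without that mouse. The dorsal value of Grm3 includes population DI-6, at 1764 CPM of Grm3 over all mice, and the fit was not run without DI-6.

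Grm8 was lower in dorsal neurons, at 213 ± 45.9 against 405 ± 122 CPM, or -0.72 on the log2 scale (SE 0.17; edgeR, adjusted p = 0.00056), and it was lower in 8 of 9 mice. The same 4 calls were made in the 15 formalin and rotarod mice taken in place of the controls, with log2 fold changes of 1.42 for Grm3, 0.99 for Grm5, 0.91 for Grm7 and -0.72 for Grm8. Ventral families were deeper, VE and VM the most. The median was 6192.5 UMIs in VE, 6829 in VM, 3142 in VI and 3081 in VC, against 2188.5 in DE and 2528 in DI. With all nuclei thinned to 500 UMIs the log2 fold change was 0.80 for Grm5 and 0.72 for Grm7, both called, while Grm3 and Grm8 no longer passed the filter.

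**Figure D3:**
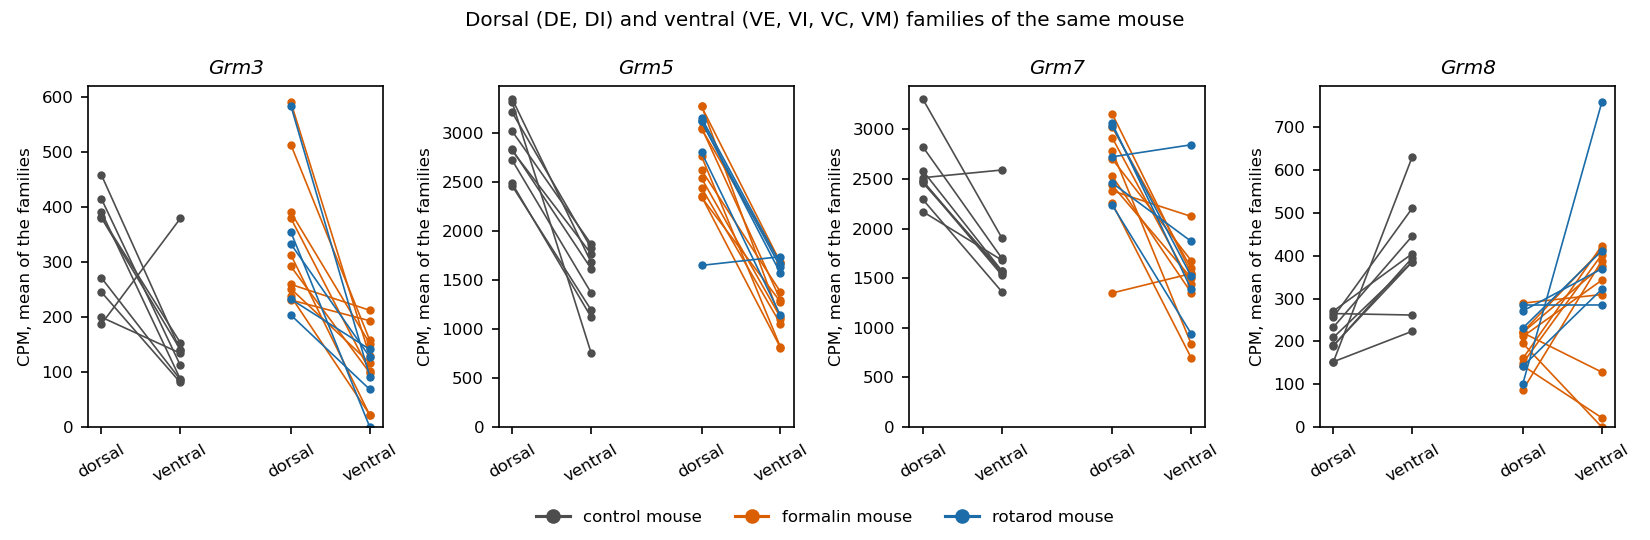
CPM of 4 receptors (vertical axes) averaged over the dorsal and over the ventral families of the same mouse, joined by a line, with control mice on the left of each panel and formalin and rotarod mice on the right. Grm5 falls from dorsal to ventral in 9 of 9 control mice, and Grm8 rises in 8 of 9.

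Between the dorsal families, Grm3 was lower in excitatory than in inhibitory neurons. In control mice DE held 171 ± 62.4 CPM and DI 480 ± 185 CPM, lower in DE in 8 of 9 mice, or -1.46 on the log2 scale (SE 0.24; edgeR, adjusted p = 3.5e-06). Grm3 was the only receptor called there, where 13.5% of genes were called, 7.26% higher and 6.25% lower. The DI family includes DI-6, with 139 of its 913 nuclei and 1764 CPM of Grm3 over all mice. The comparison was not run without DI-6, so how far the Grm3 difference holds in the rest of DI was not tested. Grm5 had -0.34 on the log2 scale (SE 0.13; edgeR, adjusted p = 0.059), which became a call with DESeq2 (0.041), with at least 10 nuclei (0.028), after thinning (0.027) and without control mouse 5 (0.030). Grm7 and Grm8 had -0.16 and -0.07. Between the ventral families, Grm7 alone was called, at 1701 ± 142 CPM in VE and 1181 ± 266 CPM in VI, higher in 8 of 8 mice, or 0.55 on the log2 scale (SE 0.13; edgeR, adjusted p = 0.0074). Here 1.40% of genes were called, 0.586% higher and 0.814% lower. Without a call, Grm8 had 0.62 (SE 0.25, edgeR adjusted p = 0.25) and was higher in VE in 7 of 8 mice. Grm5 had 0.38 (SE 0.14, edgeR adjusted p = 0.17) and was higher in 8 of 8, and Grm3 had -0.05. This Grm7 call was lost without control mouse 8 (adjusted p = 0.057), without control mouse 9 (0.080), without the 3 controls with cx in the title (0.23), without the mouse block (0.068) and after thinning (0.088). It was made again in formalin and rotarod mice, with a log2 fold change of 0.67 (edgeR adjusted p = 0.0026).

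Across all excitatory (DE, ME, VE) and inhibitory (DI, MI, VI) families no receptor was called by edgeR or DESeq2, while 8.79% of genes were called, and 1 receptor, Grm3, had an unadjusted p under 0.05. Grm3 had -0.51 on the log2 scale (SE 0.20; edgeR, adjusted p = 0.097) and Grm8 one of 0.27 (SE 0.17, edgeR adjusted p = 0.40). In formalin and rotarod mice both were called, with log2 fold changes of -0.82 and 0.75; whether the mice differ in this was not tested. Grm5 and Grm7 were not called in either set. In control mice their 95% intervals were -0.24 to 0.09 and -0.13 to 0.18 on the log2 scale; in formalin and rotarod mice Grm7 averaged 2201 CPM in excitatory and 1786 in inhibitory families, higher in 12 of 15 mice (log2 fold change 0.14, edgeR adjusted p = 0.46).

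Levels differed widely between populations of the same family. These are sums over all mice, with Poisson intervals for counting error; populations were formed from the same expression, so nothing is tested here. Grm3 reached 1764 CPM (1652 to 1881) in DI-6, a population of 139 nuclei led by Cdh3, Sema3e, Fam20a and Grm3 itself, so that its level there is part of what sets the population apart. The 16 mice with at least 3 DI-6 nuclei gave 1637 ± 602 CPM, from 534 through 1654 to 2599. DI-9 came next with 667 CPM, then DI-8 with 523 and DI-1 with 511, while DI-2 was the lowest of the 43 at 31.3 CPM (4 UMIs). The median population held 140 CPM. Populations of the DI family thus stood at both ends of the order.

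Grm5 was highest in DI-2, at 6001 CPM (5583 to 6441; 5953 ± 1598 over 9 mice), and DE-4 followed with 4876 CPM. It was lowest in DE-2 with 454 and DE-1 with 465 CPM, although the DE family as a whole was high. In these same populations Grm7 was high. DE-1, led by Bnc2 and Trhr (the receptor of thyrotropin-releasing hormone), held the top Grm7 level over all mice, 4591 CPM (4286 to 4912), and DE-2, led by Car12 and Nmur2 (a neuromedin U receptor), held 3773 CPM. Per mouse, DE-1 gave 462 ± 407 CPM for Grm5 and 4597 ± 1248 CPM for Grm7 (n = 11 mice with at least 3 nuclei), and DE-2 gave 434 ± 284 and 3955 ± 1295 CPM (n = 11). In control mice alone DI-5 was higher, with 4443 CPM of Grm7 against 4321 in DE-1. DE-4 was the reverse, next to the top for Grm5 and at rank 38 of 43 for Grm7, with 1218 CPM. VI-1 and VI-2 were low in both, with 986 and 1011 CPM of Grm5 and 751 and 811 CPM of Grm7.

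Grm8 peaked in MI-1, at 756 CPM (662 to 859), and ME-1, at 630 CPM (553 to 714), and was lowest in DI-3 with 42.2 CPM. MI-1 differed between groups of mice, with 1136 CPM in control and 463 CPM in formalin and rotarod mice together, from 22 and 27 nuclei, and in the latter mice ME-1 was the highest, at 744 CPM. Over the 7 mice with at least 3 MI-1 nuclei its spread was 885 ± 469 CPM. Grm4 was highest in DE-8, at 54.8 CPM from 14 UMIs (30.0 to 92.0), and at 0 in 6 populations. Grm2 was at 0 in 31 of the 43 populations, and its highest level, in DI-6, rests on 5 UMIs.

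**Figure D4:**
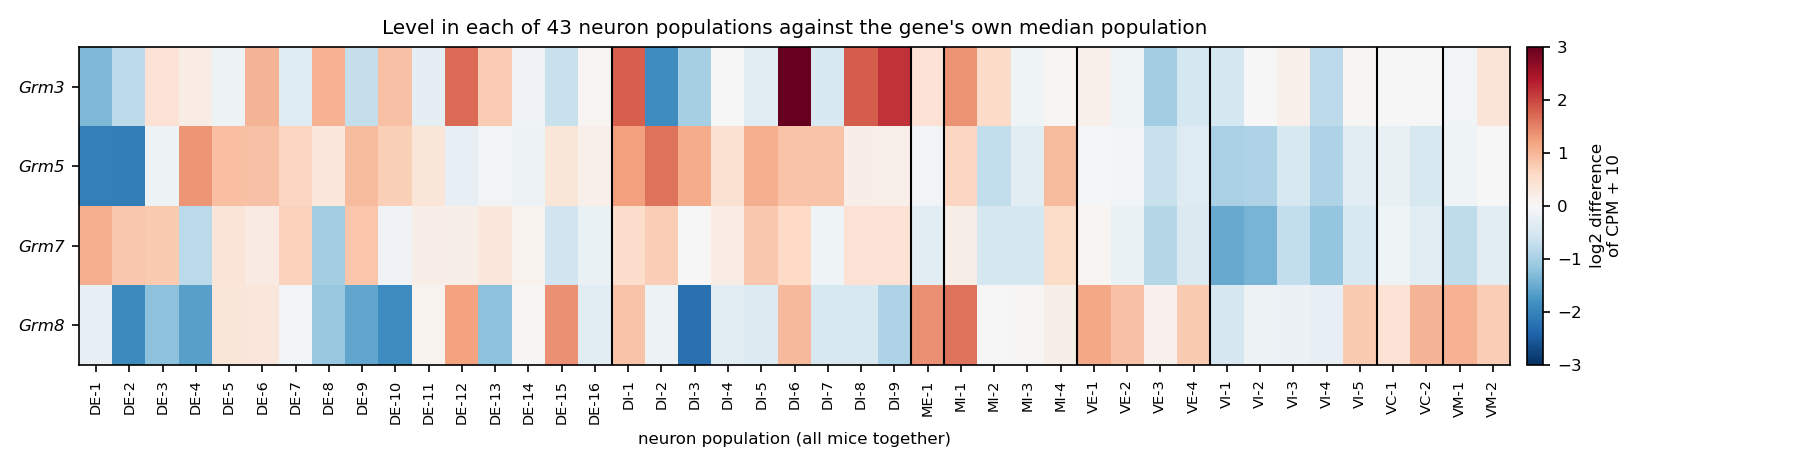
Log2 difference of CPM + 10 from the gene's own median population (colour) for 4 receptors (rows) in 43 neuron populations (columns, grouped by family, all mice together). Over all mice DI-6 is the high point of Grm3, DI-2 of Grm5, DE-1 of Grm7 (DI-5 in control mice alone) and MI-1 of Grm8 (ME-1 in formalin and rotarod mice), and DE-1 and DE-2 combine low Grm5 with high Grm7; differences beyond 3 are drawn at the end of the scale.

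Control mice were set beside formalin and rotarod mice together over the 40 populations with at least 20 nuclei in both. Pearson's r and Spearman's rho between these sets of mice were 0.92 and 0.90 for Grm5, 0.92 and 0.94 for Grm7, and 0.72 and 0.86 for Grm8. Grm3 had an r of 0.95 but a rho of 0.71, Grm4 had 0.61 and 0.65, and Grm2 had 0.13 and 0.25. Both sets were annotated together, and populations also differ in depth. Among the receptors themselves the patterns were weakly related: log2(CPM + 10) of Grm5 and Grm7 correlated at 0.30 over the 40 populations of control mice and 0.26 in the other mice, and Grm7 and Grm8 at -0.15 and -0.05.

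The genes most like each receptor over the 40 populations were looked up among 4173 genes with at least 300 UMIs in placed neurons of control mice. Dlgap1, a postsynaptic scaffold that links Shank proteins to the synapse, was closest to Grm5, at r = 0.72 in control and 0.75 in the other mice, ahead of Unc13c (0.70 and 0.71), Gpm6a, Stac and Trpc5. Grm7 was closest to Kirrel (0.70 and 0.53), Nyap2 (0.67 and 0.72), Cacna1e, a calcium channel subunit (0.65 and 0.66), Kcnd2 and Syt1. Cntn5, a neuronal adhesion molecule, was closest to Grm8 (0.66 and 0.63), followed by Dnm3 (0.59 and 0.31), BC052040 (0.58 and 0.19), Pigk (0.56 and 0.09) and St6galnac5 (0.56 and 0.57). Among the genes like Grm3 were Pdzd2 (0.54 and 0.45) and Gabra5, a GABA receptor subunit (0.53 and 0.30), while Atp6v1e1 and Fbxl20 had 0.55 and 0.52 in control but 0.03 and -0.01 in the other mice. These correlations share libraries and depth and carry no p.

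Several partner genes of the receptors were also called between dorsal and ventral families. Of 13 genes of the Gq arm, through which Grm5 signals, 9 were tested, 6 rose in dorsal families and none fell, beside 15.6% and 14.1% of all genes tested, with a median log2 fold change of 0.41 against -0.02 over all genes. Prkca (protein kinase C alpha) had 1.29 (SE 0.12), Plcb1 (phospholipase C beta 1) 0.97 (SE 0.092) and Plcb4 0.76 (SE 0.094), all with edgeR adjusted p at or under 4.1e-11. Of 11 scaffold genes 6 were tested and only Dlgap1 was called, at 0.88 (SE 0.076, edgeR adjusted p = 2.7e-18). The list's median was 0.23.

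Of 18 genes of the Gi and Go arm 11 were tested, 5 rose and 1 fell, with a median of 0.33, beside the same shares of all genes (15.6% and 14.1%). Kcnj6, a potassium channel opened by Gi and Go receptors, rose by 0.92 (SE 0.14), Adcy8 by 0.77 (SE 0.095), and Adcy2, another adenylyl cyclase, fell by 0.63 on the log2 scale (SE 0.12). Among 11 synaptic partners of group III receptors 8 were tested, 4 rose and 2 fell, beside the same shares, with a median of 0.20. Unc13b, a vesicle priming protein, had a log2 fold change of 1.25 (SE 0.21) and Grip1, a PDZ scaffold, one of -0.66 (SE 0.094). Of 8 genes of glutamate uptake and recycling 4 were tested; the transporter Slc1a2 had 1.10 (SE 0.16) and the vesicular transporter Slc17a6 had -0.70 (SE 0.26, edgeR adjusted p = 0.023). The Slc17a6 call was lost without the cx mice (adjusted p = 0.12), without a filter (0.13), without control mouse 6 (0.31) and with at least 10 nuclei per mouse and family (0.68). Slc1a2 is also an astrocyte marker, and the summed astrocyte markers, Slc1a2 included, were 196 CPM in DE and 159 in DI against 78.0 to 126 CPM in the ventral families; their part in the result was not tested. Rims2, a release-site protein, had 0.36 (SE 0.085) but -0.24 with nuclei thinned to 500 UMIs, not called.

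Between DE and DI, in the same fit and over the same genes, 7.26% of all genes tested were called higher in DE and 6.25% lower. The Gq arm split. Plcb1 was lower in DE (log2 fold change -1.14, SE 0.14), while Itpr1, a calcium release channel, was higher (0.79, SE 0.27). In the Gi and Go arm Adcy2 rose in DE by 1.22 (SE 0.18), and Adcy8 (-1.12, SE 0.14) and Gnai1 (-0.85, SE 0.28) were among 3 that fell. The calls of Itpr1 and Gnai1 were lost without control mouse 1 (edgeR adjusted p = 0.077 and 0.18) and without control mouse 5, 6 or 7 (0.060 to 0.10), and that of Itpr1 also without control mouse 3 (0.055). Dlgap1 had -0.80 (SE 0.11), as did Grm5 by direction, though without a call. Slc17a6, which marks excitatory neurons and helped name the families, had 3.23 (SE 0.37). No synaptic partner of group III was called between DE and DI, where edgeR tested 8. Between VE and VI only Slc17a6 was called among all 5 lists, beside 1.40% of all genes tested. Slc17a6 had 1.13 (SE 0.30, edgeR adjusted p = 0.028), and that call was lost without the cx mice (0.74).

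Between all excitatory and all inhibitory families each list held called genes, beside 8.79% of all genes tested. The fit and the genes tested were those of dorsal against ventral families. Plcb1 (-0.68, SE 0.10), Dlgap1 (-0.50, SE 0.077), Adcy8 (-0.39, SE 0.10), Rgs7 (-0.32, SE 0.099) and Unc13a (-0.50, SE 0.15) were lower in excitatory families on the log2 scale. Slc17a6 (1.97, SE 0.30), Itpr1 (0.68, SE 0.20), Adcy2 (0.62, SE 0.12), Frmpd4 (0.44, SE 0.11), a scaffold, and Rims1 (0.26, SE 0.077) were higher. The calls of Rims1 and Unc13a were not made in formalin and rotarod mice (edgeR adjusted p = 0.42 and 0.49) and were lost with at least 10 nuclei (0.66 and 0.74). At that minimum the calls of Adcy2 (0.81), Adcy8 (0.69), Rgs7 (0.75), Frmpd4 (0.40) and Itpr1 (0.12) were lost too.

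Between the study's conditions no receptor passed the test in neurons. UMI counts of neurons were summed per mouse, all 3 groups entered 1 edgeR fit of 9103 genes, and 5 receptors passed the filter; Grm2 did not. No receptor was called in formalin against control, rotarod against control or formalin against rotarod, by edgeR or DESeq2. Of the genes tested edgeR called 0, 0 and 2.15% in the same order, with 766, 782 and 1617 genes at an unadjusted p under 0.05; DESeq2 called 2, 15 and 263 genes.

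In Grm5 the control mice ran from 1767 through a median of 1984 to 2177 CPM, and the formalin mice from 1233 through 1847 to 2184. The rotarod mice held 1774, 2054, 1343, 2099 and 2084 CPM. The groups overlapped widely, with formalin and rotarod mouse 3 reaching lower. The log2 fold change of formalin against control was -0.19 (95% interval -0.38 to 0.00, edgeR adjusted p = 0.58), and that of rotarod against control was -0.03 (-0.26 to 0.19, adjusted p = 0.97).

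Grm7 ran from 1437 through 1857 to 2161 CPM in control and from 1370 through 1905 to 2121 in formalin mice. Rotarod mice held 1897, 1849, 1274, 2124 and 1977 CPM. Rotarod mouse 3 lay below every other mouse and the remaining values overlapped. The log2 fold changes were -0.08 (SE 0.093) for formalin and 0.03 (SE 0.11) for rotarod against control, with edgeR adjusted p of 0.84 and 0.98. Grm3 ran from 152 through 228 to 267 CPM in control and from 132 through 214 to 253 in formalin mice, and was 203, 143, 143, 269 and 201 CPM in rotarod mice. Its log2 fold changes were -0.19 (SE 0.13) and -0.15 (SE 0.15). Grm8 ran from 184 through 310 to 434 CPM in control and from 169 through 271 to 327 in formalin mice, and was 288, 361, 165, 305 and 295 CPM in rotarod mice. Formalin against control gave -0.27 (95% interval -0.56 to 0.01, edgeR adjusted p = 0.61).

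With the trend of fold change on gene span removed (a lowess curve over 8949 genes), the values in neurons moved. For formalin against control Grm5 became -0.06, Grm8 -0.12 and Grm3 -0.10, and Grm7 changed sign to 0.07. For rotarod against control Grm5 became -0.15, Grm8 -0.21 and Grm3 -0.25, and Grm7 changed sign to -0.10. For formalin against rotarod all 4 changed sign, to 0.15 for Grm3, 0.09 for Grm5, 0.16 for Grm7 and 0.09 for Grm8.

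Grm4 showed the largest difference of the 5 and the smallest p. Control mice ran from 16.5 through 25.7 to 33.9 CPM and formalin mice from 17.5 through 26.9 to 40.4. The rotarod mice held 41.1, 22.8, 71.7, 30.3 and 26.4 CPM, so that mice 1 and 3 were above every control and formalin mouse and the other 3 were among them. Rotarod against control had a log2 fold change of 0.52 (SE 0.23, unadjusted p = 0.026, edgeR adjusted p = 0.50), and formalin against rotarod one of -0.49 (SE 0.23, unadjusted p = 0.040, edgeR adjusted p = 0.25). Without rotarod mouse 3, whose value rests on 23 UMIs, these became 0.29 and -0.26. Neither passed the test in the fits that left out 1 mouse each, with edgeR adjusted p from 0.41 to 0.82 and from 0.19 to 0.61. Grm2 had 16, 11 and 2 UMIs in neurons of control, formalin and rotarod mice, too few to pass the filter on low counts.

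**Figure D5:**
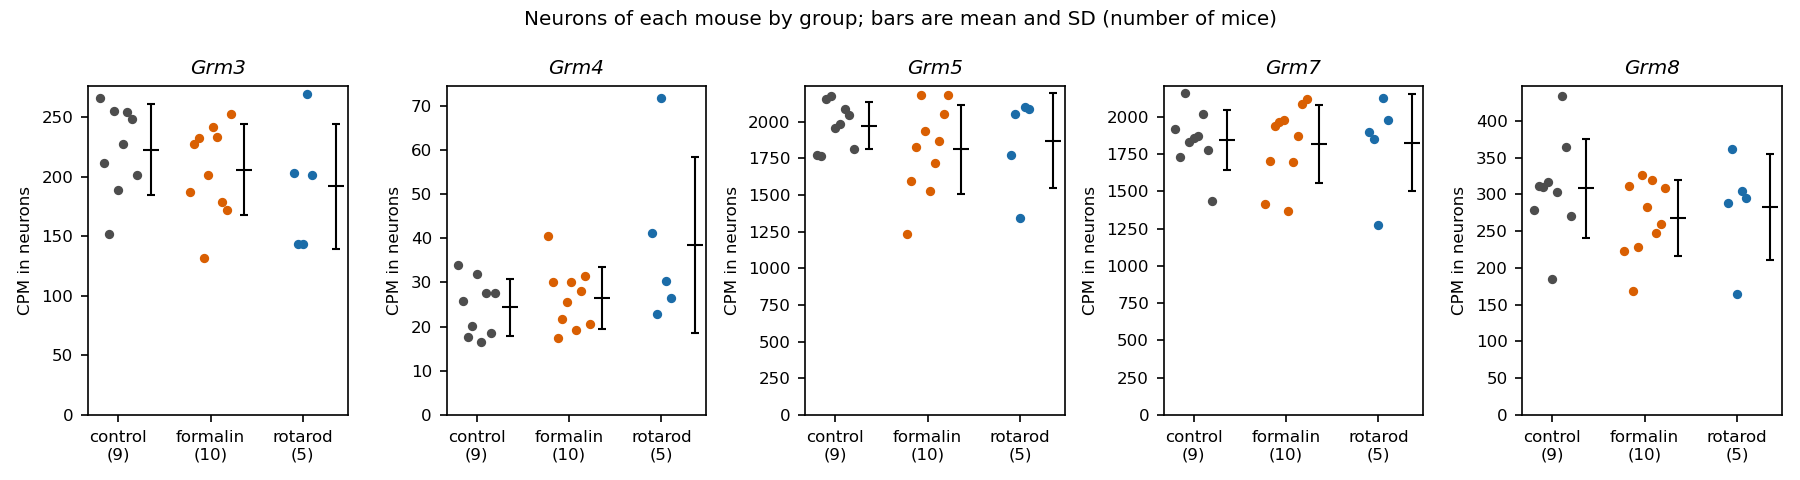
CPM of 5 receptors in neurons (vertical axes, from 0) of each of 9 control, 10 formalin and 5 rotarod mice, with the mean and SD of each group. The groups overlap in each panel; in Grm4 rotarod mouse 3 stands at 71.7 CPM.

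Outside neurons 45 receptor tests in 4 classes gave no call by edgeR or DESeq2, with 6 unadjusted p under 0.05 by edgeR and 5 by DESeq2. Beside that, edgeR called 0.0317% of genes in rotarod against control and 0.475% in formalin against rotarod mice in oligodendrocytes, and 0.388% and 1.33% in astrocytes. In meningeal or Schwann nuclei these shares were 0.0917% and 0.0611%. They were 0 in endothelial or vascular nuclei and in formalin against control of all 4 classes. Grm3 in oligodendrocytes ran from 543 through 791 to 1144 CPM in 8 control mice and from 789 through 1056 to 1348 in 10 formalin mice, and averaged 831 ± 184 in the 5 rotarod mice. The groups overlapped, and formalin against control had a log2 fold change of 0.28 (SE 0.13, unadjusted p = 0.037, edgeR adjusted p = 0.85). Grm5 had -0.63 (SE 0.22) in meningeal or Schwann nuclei and -0.64 (SE 0.29) in endothelial or vascular nuclei for rotarod against control, both with an edgeR adjusted p of 0.50.

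Within the neuron families 69 receptor tests in DE, DI, MI, VE, VI and VC gave no call by edgeR or DESeq2, with 8 unadjusted p under 0.05 by edgeR and 6 by DESeq2. ME and VM had too few mice with 5 nuclei. The shares of genes called were 0.170% in DI for formalin against rotarod, 0.0549% in MI for rotarod against control and 0.102% in VE for formalin against control, and 0 in the other 15 comparisons. The lowest log2 fold changes were those of Grm3 in MI, -1.0 (SE 0.37) for rotarod and -0.94 (SE 0.33) for formalin against control, with edgeR adjusted p of 0.89 and 0.46. Both share the control mice. Grm8 in DI had -0.67 (SE 0.25, edgeR adjusted p = 0.37) for formalin against rotarod.

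Among the partner lists, neither comparison with control mice gave a call in neurons, where 54 partner genes were tested by edgeR. In formalin against rotarod mice 6 were called, beside 2.15% of all genes tested. Kcnj6 fell by 0.53 (SE 0.13, edgeR adjusted p = 0.021), Rims2 by 0.51 (SE 0.13, edgeR adjusted p = 0.023), Adcy2 by 0.49 (SE 0.13, edgeR adjusted p = 0.041) and Elfn1, a trans-synaptic partner of group III receptors, by 0.82 (SE 0.23, edgeR adjusted p = 0.041) on the log2 scale. Pick1 rose by 0.76 (SE 0.21, edgeR adjusted p = 0.041) and 1 further gene of the synaptic list fell. The median log2 fold change was -0.17 in the synaptic list and -0.21 in the Gi and Go list, against 0.01 over all genes. These partner values are given without the trend on gene span removed. Its removal changed the sign of Grm3, Grm5, Grm7 and Grm8 in this comparison, and its part in the partner values was not tested. With formalin samples merged in pairs into 5 units none of the 5 named genes was called, at adjusted p of 0.083 to 0.13, and the count over all genes was 4 in place of 196.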

How the data were processed

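The members and gene lists were chosen with earlier results of these data known. The authors deposited 1 matrix of raw UMI counts per gene and nucleus barcode (750 per mouse in 24 libraries) and a table of classes and population codes; per the submitters' processing notes the builds are mm10 and GRCm38, and no source used here gives the aligner, the annotation or the use of introns. Barcodes that the authors discarded (3818) or left unlabelled (757) were not used, and doublets were not called again. Counts were summed per mouse and class (at least 10 nuclei) or family (at least 5) and divided by the summed UMIs to give CPM. Means and SDs are over mice, population values are pooled, and intervals (95%) and limits for 0 (3 counts) cover counting error only. Each sample is taken as 1 mouse; the labels do not say that formalin samples are all separate animals, and p-values measure the spread between samples.

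Tests used edgeR 4.0.16 (quasi-likelihood, TMM, filterByExpr) in R 4.3.3 with limma 3.58.1 and Benjamini-Hochberg adjustment over all genes tested at 0.05; DESeq2 1.42.0 was an alternative. Other steps used Python 3.11.15, numpy 2.4.6, scipy 1.17.1, pandas 2.3.3 and matplotlib 3.10.9. Partner genes named were up to 3 called members of each list per comparison, by size of change, and the genes named as most like a receptor were the 5 with the highest Pearson r of log2(CPM + 10) over populations in control mice. The fits were tested on simulated data with known changes, where genes lost to the filter counted as missed. For formalin against control in neurons 41% of changes of 0.5 on the log2 scale were recovered, and 91% of changes of 1.0. For dorsal against ventral families 30% and 50% were recovered. Smaller changes can thus go without a call. The replicate numbers of formalin and rotarod samples did not pair them (correlations of deviations from -0.107 to 0.046). Alternatives were other tools, filters and depths, and leaving out mice. Some genes that these rules pick are not reported here.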

Additional observations from a re-analysis of the deposited data

Results flagged for a closer look

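Of 104 groups of 4 to 10 mice examined, 7 held 1 mouse far from the rest; chance flags about 1 group in 20. Grm8 in oligodendrocytes of control mouse 8 was 206.567 CPM (27 UMIs in 59 nuclei) against 72.2 to 134 in the other control mice. Grm7 in DE neurons of control mouse 3 was 3284.94 CPM against 2108 to 2610. Grm3 in DE of formalin mouse 6 was 392.245 CPM from 7 UMIs in 14 nuclei, against 88.8 to 245. Grm5 in DI of rotarod mouse 3 was 1672.86 CPM (20 nuclei) against 3438 to 3645, in the library that also held the lowest neuronal markers of its group. Grm5 in VE of formalin mouse 9 was 2199.37 CPM (6 nuclei) against 1185 to 1523, and Grm7 in VE of formalin mouse 8 was 2793.59 CPM (7 nuclei) against 1129 to 1823. Grm7 in VI of control mouse 7 was 1742.98 CPM (1117 UMIs in 103 nuclei) against 885 to 1272.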

How the results depend on the processing

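Of 3775 log2 fold changes of receptors under alternatives, 3753 stayed on their side of the threshold, and no called value changed sign. Of 669 values of the 36 partner changes, 109 lost the call, 3 moved and 1 reversed. Between DE and DI the receptors called went from 1 to 2 with DESeq2, with at least 10 nuclei and without control mouse 5 (range 1 to 2 over mice left out). Between VE and VI they went from 1 to 0 without the cx mice, after thinning and without the mouse block, and to 2 with at least 10 nuclei (range 0 to 1 over mice left out). Between dorsal and ventral families 4 became 2 after thinning, where only 288 genes were tested, and Rims2 turned to -0.24. Between excitatory and inhibitory families 0 became 2 in formalin and rotarod mice (range 0 to 1 over mice left out). The cause was not tested.

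Counts over all genes moved more. Without the cx mice 415 became 261 (DE against DI), 43 became 3 (VE against VI), 913 became 500 (dorsal) and 270 became 120 (excitatory). After thinning these were 116, 26, 129 and 51. VE against VI gave 83 with DESeq2, 10 without the mouse block and 16 to 55 with a mouse left out; dorsal gave 1372 without a filter, and excitatory 72 with at least 10 nuclei. In neurons formalin against control gave 2 (DESeq2), 31 (no filter) and 0 to 1 with a mouse left out. Rotarod against control gave 15 (DESeq2), 43 (no filter), 3 (without cx), 2 (merged), 1 (only these groups), 1 (placed neurons) and 0 to 11. Formalin against rotarod gave 10 thinned, 4 merged, 92 in placed neurons and 60 to 239 with a mouse left out, the lowest without rotarod mouse 3. With the replicate block on formalin and rotarod samples 1 to 5 it gave 31, and 45 without the block.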
